A study of Homo sapiens with 24 samples.

Results

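The 38 genes described here encode proteins of DNA repair and of the checkpoint that answers DNA damage, and they were chosen by symbol among the 34229 gene symbols listed in the deposited RPKM values (reads scaled by transcript length in kilobases and by mapped reads in units of M, 1e6) of glioma cells treated with epigallocatechin-3-gallate (EGCG) and hydroxychavicol (HC). All 38 were listed in every library, with 1.127 RPKM as the lowest and 201.4 RPKM as the highest value, and all 38 passed the filter of a mean of at least 1 RPKM in each of the 15 comparisons. Broken DNA strands are rejoined either by homologous recombination, which copies an intact sister chromatid, or by non-homologous end joining, which ligates the ends directly. The Fanconi anaemia proteins remove crosslinks between strands, excision repair cuts out damaged bases or nucleotides, and mismatch repair corrects replication errors. The kinases ATM and ATR sense breaks and stalled forks and act through CHEK2 and CHEK1, and in glioma these pathways are known for their part in the response to radiation and alkylating drugs.

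EGCG is a catechin of green tea and HC a phenol of betel leaf, and the study asked how they act singly and combined on glioma cells. 1321N1, an astrocytoma line of grade II, and LN18, a glioblastoma line of grade IV, were each given vehicle (ethanol, the control), EGCG, HC or EGCG+HC for 24 h, with 3 libraries in each of 8 groups (24 libraries). EGCG was given at 50 µg/ml in both lines, whereas HC was given at 20 µg/ml in 1321N1 and at 10 µg/ml in LN18, so responses to HC in the 2 lines are set side by side and not compared by a test. The paper's methods give a higher share of foetal bovine serum in the medium of 1321N1 than in that of LN18. Serum and line cannot be told apart in any comparison between the lines. Each group is cells of 1 line, the replicates were described as independent tests, and the p-values measure the spread between these libraries.

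The depth recovered from the values was 13.8 M to 32.4 M counted reads per library, and mitochondrial transcripts made up 5.956 to 11.98% of the summed RPKM. In 1321N1 EGCG replicates 2 and 3, 263 genes were listed at 0 that exceeded 1 RPKM in replicate 1, but 0 of the 38 genes were among them. Of 9 glial markers 7 were listed and 4 (SOX9, NES, VIM and SLC1A3) reached 1 RPKM in a library. GFAP, the defining astrocyte filament, was not among these 4. Only markers listed in every library were counted as reaching 1 RPKM. The summed glial level in 1321N1 was 954.9 to 1044 RPKM in control and 369.7 to 383.5 RPKM with HC, and in LN18 it was 278.5 to 292.1 RPKM in control and 180.8 to 182.6 RPKM with EGCG+HC. The summed level of 4 epithelial markers, of which KRT18, KRT8 and CDH1 reached 1 RPKM, was 11.8 to 12.14 RPKM in 1321N1 control, 30.33 to 32.46 RPKM with HC there and 133.3 to 142.8 RPKM in LN18 control, where EGCG+HC libraries had 56.6 to 59.01 RPKM. Of the 4 blood markers CD3E was not listed and CD68 alone reached 1 RPKM. The summed blood level in LN18 was 17.12 to 19.98 RPKM in control and 40.28 to 43.23 RPKM with EGCG. Of the 4 neuronal markers TUBB3 was not listed and SNAP25 alone reached 1 RPKM. The summed neuronal level was 0.856 to 1.294 RPKM in LN18 control and 3.11 to 4.393 RPKM with HC. The part of these markers in the results was not tested. Endothelial markers, of which PECAM1 was not listed, stayed at or below a summed 0.276 RPKM.

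In the control cells, XRCC6 and XRCC5, which form the Ku ring that grips DNA ends, and APEX1, the endonuclease that cuts at abasic sites, had the highest levels per length. XRCC6 stood at 187 ± 7.3 RPKM (mean ± SD, n = 3) in 1321N1 and at 199.5 ± 2.9 RPKM in LN18. BRCA2, a mediator of homologous recombination, was lowest in 1321N1 (2.40 ± 0.21 RPKM), and LIG4, the ligase of end joining, was lowest in LN18 (2.86 ± 0.20 RPKM). BRCA2, XRCC4 and ATM, the 3 lowest genes in 1321N1, lay between 2.40 and 2.70 RPKM and are not separated by their spread.

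Before treatment the lines already differed in 14 of the 38 genes, with a limit of an adjusted p of 0.05 and a fold change of 1.5 for calling a difference. In LN18 10 genes were higher (26.3%, against 21.9% of all 13293 genes tested) and 4 were lower (10.5%, against 20.7% of all genes). RAD50, a subunit of the complex that tethers broken ends, was 3.63, 3.92 and 3.95 RPKM in 1321N1 control and 14.8, 15.4 and 15.3 RPKM in LN18 control. The log2 difference, LN18 minus 1321N1, was 1.75 ± 0.045 (SE) at an adjusted p of 6.4e-08. XRCC4 (1.28), BRCA1 (0.96), UNG (0.87) and CHEK1 (0.86) were also higher in LN18 on the log2 scale. DDB2, the sensor of ultraviolet lesions and a known p53 target, was 57.0, 59.7 and 57.3 RPKM in 1321N1 and 16.3, 16.9 and 16.3 RPKM in LN18, a log2 difference of -1.75 ± 0.036 (SE) at an adjusted p of 2.4e-08. ERCC1 (-1.05) and APEX1 (-1.05) were the next lowest in LN18 on the log2 scale.

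In 1321N1, HC lowered repair genes and EGCG alone did not reach the limits for any. With HC 19 of the 38 genes fell (17.7% of all 13408 genes tested fell) and 0 rose (18.8% of all genes rose) by limma, where 3 had a higher level at an unadjusted p under 0.05, with a median log2 change of -0.59 for the 38 genes and -0.01 for all genes. With EGCG 0 fell (1.83% of all 13255 genes) and 0 rose (3.14%) by limma with both limits, although 20 of the 38 (52.6%) had an unadjusted p under 0.05 and 17 (44.7%) an adjusted p within the limit. These shares were near those of all genes, of which 51.6% and 40.1% did. The median log2 change with EGCG was 0.13 for the 38 genes and 0.10 for all genes, and the count was also 0 with replicate 1 as the only EGCG library. With EGCG+HC 13 fell (18.0% of all 13912 genes) and 3 rose (23.1%), and the medians were -0.51 and -0.01. The RNA came from whole cultures, so fewer cells of a kind and less RNA per cell cannot be told apart.

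In LN18 EGCG alone lowered more of the repair genes than HC alone, which was given at the lower dose. EGCG lowered 12 of the 38 genes (9.70% of all 13157 genes tested fell) and raised 0 (9.11% rose) by limma, where 4 were higher at an unadjusted p under 0.05, with a median log2 change of -0.33 against 0.03 for all genes. HC at its lower dose lowered 3, MSH6, PARP1 and UNG (2.26% of all 13392 genes), and raised 0 (9.48%) by limma, where 11 were higher at an unadjusted p under 0.05, with medians of 0.02 and 0.10. EGCG+HC lowered 17 (22.2% of all 13807 genes) and raised 2 (24.1%), with medians of -0.43 and 0.01. The share of the 38 genes that fell with EGCG+HC was 44.7% in LN18 and 34.2% in 1321N1. Within a line these comparisons share their control libraries.

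**Figure D1:**
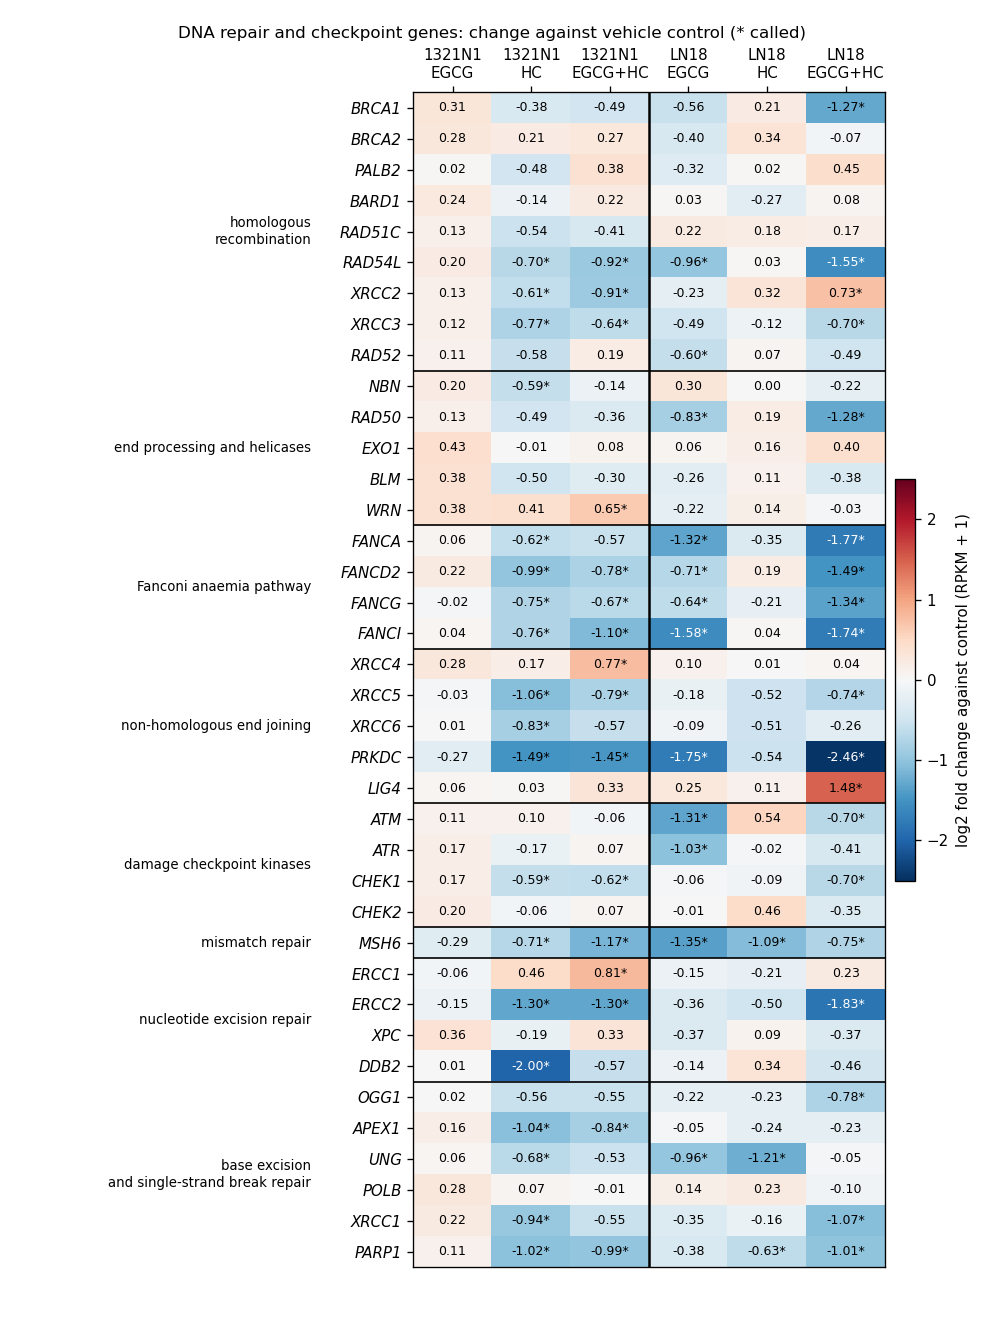
Log2 fold change against vehicle control on the log2(RPKM + 1) scale of the 38 genes (rows, by pathway) in 6 comparisons (columns, n = 3 libraries per group), with called changes starred. In 1321N1 the HC column holds 19 starred falls and the EGCG column 0, and in LN18 the EGCG column holds 12 and the HC column 3.

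The shift was present in each library. The median of the 38 genes, as a log2 difference from the mean of the controls, was -0.59, -0.59 and -0.54 in the 3 HC libraries of 1321N1. It was -0.33, -0.35 and -0.30 in the 3 EGCG libraries of LN18. The EGCG libraries of 1321N1 had medians of 0.15, 0.15 and 0.08, and the HC libraries of LN18 0.03, -0.05 and 0.07, so these 6 libraries lay above the former 6.

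EGCG+HC lowered 11 genes in both lines: CHEK1, ERCC2, FANCD2, FANCG, FANCI, MSH6, PARP1, PRKDC, RAD54L, XRCC3 and XRCC5. That was 28.9% of the 38 genes, against 10.8% of the 12274 genes tested in both lines. APEX1 fell in 1321N1 and was not called in LN18, while ATM, BRCA1, FANCA, OGG1, RAD50 and XRCC1 fell in LN18 and were not called in 1321N1. LIG4 rose in LN18, and ERCC1, WRN and XRCC4 rose in 1321N1, each without a call in the other line. XRCC2 fell in 1321N1 and rose in LN18, and 15 genes were called in neither line. With single agents, 8 genes (FANCA, FANCD2, FANCG, FANCI, MSH6, PRKDC, RAD54L and UNG) fell both with HC in 1321N1 and with EGCG in LN18. That was 21.1% of the 38 genes against 3.67% of the 11717 genes tested in both comparisons. This pairing joins the agent with more falls in each line. With HC in both lines 3 genes fell, MSH6, PARP1 and UNG (7.89%, against 1.49% of the 11847 genes tested in both). With EGCG in both lines 0 could, since 0 fell with EGCG in 1321N1.

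Promoters of several of the 38 genes are shown because E2F factors and CCAAT-binding NF-Y are known regulators of genes used when DNA is copied. RefSeq promoter windows (GRCh38.p14, 300 bases from 250 before to 50 after the start of a transcript) matched 32 of the 38 genes. FANCI, XRCC5, PRKDC, WRN, NBN and POLB had no window. An E2F motif (TTTCCCGC, TTTGGCGC, TTTCGCGC or TTTGCCGC, on either strand) was found in 8 genes, EXO1, FANCA, FANCD2, MSH6, UNG, XPC, XRCC2 and XRCC6, against 4.0% of all 27305 genes and 3.3% of all 35116 windows. The CCAAT box (CCAAT on either strand) was found in 20 of the 32 genes and in 39.7% of all genes. The motif TTTGAA, on either strand, was found in 5 of the 32 and in 18.2% of all genes. The NRF1 motif (GCGC and TGCGC with any 1 base between them, either strand) was found in 7 of the 32 and in 7.0% of all genes and is not marked in the windows. Of the 8 genes with an E2F motif 6 fell with HC in 1321N1 and 4 with EGCG in LN18, and of the 24 genes with a window and no E2F motif 9 and 6 did. With EGCG+HC 3 of the 8 and 7 of the 24 fell in 1321N1, and 3 of the 8 and 11 of the 24 fell in LN18, so the order was not the same in all comparisons. These counts are a description with no test. A match is a run of letters and not a shown binding site. The windows below lie at chr16:89816598-89816897 (FANCA, minus strand), chr3:10026187-10026486 (FANCD2, plus), chr2:47782895-47783194 (MSH6, plus), chr12:109097922-109098221 (UNG, plus) and chr7:152676092-152676391 (XRCC2, minus). They read 5′ to 3′ along the gene, with E2F and CCAAT matches in capitals:
FANCA: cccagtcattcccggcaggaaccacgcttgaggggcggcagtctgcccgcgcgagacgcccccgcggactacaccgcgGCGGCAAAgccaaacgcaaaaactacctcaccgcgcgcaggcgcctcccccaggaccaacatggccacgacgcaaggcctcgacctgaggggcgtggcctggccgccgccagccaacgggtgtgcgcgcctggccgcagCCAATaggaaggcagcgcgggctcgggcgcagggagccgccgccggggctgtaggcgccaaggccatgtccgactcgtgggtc
FANCD2: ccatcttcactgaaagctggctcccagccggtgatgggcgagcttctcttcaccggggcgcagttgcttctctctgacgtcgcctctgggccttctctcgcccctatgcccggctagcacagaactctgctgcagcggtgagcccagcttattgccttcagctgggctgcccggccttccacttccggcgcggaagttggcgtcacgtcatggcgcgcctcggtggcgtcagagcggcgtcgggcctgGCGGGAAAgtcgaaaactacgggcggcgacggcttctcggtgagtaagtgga
MSH6: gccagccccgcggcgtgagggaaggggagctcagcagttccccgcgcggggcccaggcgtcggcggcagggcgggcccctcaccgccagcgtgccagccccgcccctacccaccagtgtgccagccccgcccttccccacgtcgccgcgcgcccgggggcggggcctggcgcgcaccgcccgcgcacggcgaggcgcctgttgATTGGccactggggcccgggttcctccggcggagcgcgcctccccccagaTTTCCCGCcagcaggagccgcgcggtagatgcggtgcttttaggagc
UNG: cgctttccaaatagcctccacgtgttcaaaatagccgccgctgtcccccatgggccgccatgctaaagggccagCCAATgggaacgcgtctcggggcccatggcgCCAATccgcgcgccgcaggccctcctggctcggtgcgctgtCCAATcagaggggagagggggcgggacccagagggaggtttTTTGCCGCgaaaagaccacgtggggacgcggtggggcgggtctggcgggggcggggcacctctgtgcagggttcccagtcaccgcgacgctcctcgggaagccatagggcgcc
XRCC2: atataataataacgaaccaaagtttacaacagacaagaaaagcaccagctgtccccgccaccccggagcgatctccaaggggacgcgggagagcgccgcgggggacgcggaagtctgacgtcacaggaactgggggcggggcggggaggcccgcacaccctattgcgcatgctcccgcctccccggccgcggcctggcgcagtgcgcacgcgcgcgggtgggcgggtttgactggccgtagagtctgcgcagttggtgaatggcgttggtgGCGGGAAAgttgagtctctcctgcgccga
The E2F match starts 172 bases before the transcript start in FANCA, 63 before it in UNG and 2 before it in FANCD2. It lies 3 bases beyond the first base of the transcript in MSH6 and 21 beyond it in XRCC2. With both agents in LN18, FANCA, FANCD2 and MSH6 fell, XRCC2 rose and UNG was not called.

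The 4 Fanconi anaemia genes fell together in 3 of the 6 comparisons with control. FANCA and FANCG belong to the core complex that marks FANCD2 and FANCI with ubiquitin at a crosslink. All 4 fell with HC in 1321N1, all 4 with EGCG in LN18 and all 4 with EGCG+HC in LN18, and 3 fell with EGCG+HC in 1321N1, where FANCA missed the fold limit (log2 change -0.57). In the same order, 17.7, 9.70, 22.2 and 18.0% of all genes tested fell. With HC in 1321N1 the call of FANCA was lost without control replicate 1, where its log2 change was -0.55. FANCI (chr15:89787176-89860492, GRCh37) was 28.2, 29.1 and 27.4 RPKM in LN18 control, 8.96, 8.49 and 8.86 RPKM with EGCG, 29.7, 27.1 and 30.2 RPKM with HC and 7.46, 8.10 and 7.66 RPKM with EGCG+HC. The EGCG and EGCG+HC libraries lay below every control and HC library, which overlapped each other. Its log2 change with EGCG was -1.58 ± 0.035 (SE) at an adjusted p of 8.8e-07, and with EGCG+HC -1.74 ± 0.041 (SE) at an adjusted p of 5.9e-08. In 1321N1 FANCI was 17.1, 18.6 and 17.9 RPKM in control, 19.5, 18.5 and 17.4 with EGCG, 10.2, 10.1 and 10.2 with HC and 8.09, 7.48 and 7.95 with EGCG+HC. There the EGCG libraries overlapped the controls, and the log2 change with EGCG+HC was -1.10 ± 0.047 (SE) at an adjusted p of 8.0e-07.

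FANCA was 13.3, 13.6 and 12.7 RPKM in LN18 control and 3.19, 3.28 and 3.005 RPKM with EGCG+HC, a log2 change of -1.77 ± 0.044 (SE) at an adjusted p of 7.8e-08. With EGCG alone it was 4.74, 4.77 and 4.57 RPKM, a log2 change of -1.32 ± 0.037 (SE) at an adjusted p of 1.0e-06. ZNF276 on the other strand overlaps 19.6% of the exon length of FANCA, and the library kit does not mark strand. FANCD2 went from 8.91, 9.70 and 9.13 RPKM in 1321N1 control to 4.30, 4.25 and 3.92 RPKM with HC, a log2 change of -0.99 ± 0.052 (SE) at an adjusted p of 2.3e-06. With EGCG+HC it fell in 1321N1 (log2 change -0.78 ± 0.051 (SE) at an adjusted p of 6.1e-06) and in LN18 (-1.49 ± 0.054 (SE) at an adjusted p of 3.0e-07). FANCG fell with EGCG+HC by 0.67 on the log2 scale in 1321N1 (SE 0.045, adjusted p = 7.3e-06) and by 1.34 in LN18 (SE 0.079, adjusted p = 2.8e-06). In LN18 HC left FANCD2 at 12.1, 10.7 and 11.8 RPKM, and each of these libraries exceeded every control library.

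Among the end-joining genes, PRKDC had the largest fall of the 38 genes in 3 of the 6 comparisons with control, those with EGCG+HC and with EGCG in LN18. It encodes the catalytic subunit of DNA-PK, which Ku recruits to a break. PRKDC (chr8:48685672-48872738, GRCh37) was 48.9, 51.5 and 50.3 RPKM in LN18 control, 14.6, 14.0 and 14.3 RPKM with EGCG, 38.05, 28.3 and 37.5 RPKM with HC and 8.07, 8.51 and 8.38 RPKM with EGCG+HC. The 4 groups did not overlap, and HC replicate 2 was the lowest of its group. The log2 change in LN18 was -1.75 ± 0.030 (SE) at an adjusted p of 5.9e-07 with EGCG and -2.46 ± 0.034 (SE) at an adjusted p of 1.8e-08 with EGCG+HC. In 1321N1 PRKDC was 56.2, 58.1 and 56.5 RPKM in control, 48.2, 48.0 and 45.2 with EGCG, 20.4, 18.6 and 19.96 with HC and 21.1, 19.3 and 20.4 with EGCG+HC. The HC and EGCG+HC libraries overlapped each other and lay below the rest, with a log2 change of -1.49 ± 0.043 (SE) at an adjusted p of 1.5e-07 for HC and -1.45 ± 0.040 (SE) at an adjusted p of 1.3e-07 for EGCG+HC.

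Of the other 4 end-joining genes, XRCC5 fell in both lines with EGCG+HC, XRCC4 rose in 1321N1 and LIG4 rose in LN18. XRCC5 was 124, 138 and 134 RPKM in 1321N1 control and 61.9, 63.4 and 63.6 RPKM with HC, a log2 change of -1.06 ± 0.045 (SE) at an adjusted p of 8.4e-07. With EGCG+HC it fell in 1321N1 (log2 change -0.79 ± 0.043 (SE) at an adjusted p of 2.7e-06) and in LN18 (-0.74 ± 0.032 (SE) at an adjusted p of 5.9e-07). XRCC6, its partner, was 104, 107 and 104 RPKM with HC in 1321N1 and fell there, and with EGCG+HC its log2 change was -0.57, within the fold limit. The files list 5 pseudogenes of XRCC6, whose reads may be shared with it. XRCC4, the scaffold that holds LIG4, rose with EGCG+HC in 1321N1 from 1.86, 2.59 and 3.21 RPKM to 4.67, 5.53 and 4.84 RPKM, a log2 change of 0.77 ± 0.14 (SE) at an adjusted p of 0.0014, and control replicate 1 was its lowest library. LIG4 (chr13:108859787-108870716, GRCh37) was 2.67, 3.06 and 2.84 RPKM in LN18 control, 3.70, 3.55 and 3.55 with EGCG, 3.31, 2.96 and 3.24 with HC and 9.40, 10.3 and 9.57 with EGCG+HC. The EGCG+HC libraries stood above every other LN18 library, and the log2 change was 1.48 ± 0.055 (SE) at an adjusted p of 3.2e-07. In 1321N1 the log2 change of LIG4 with EGCG+HC was 0.33, within the fold limit.

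**Figure D2:**
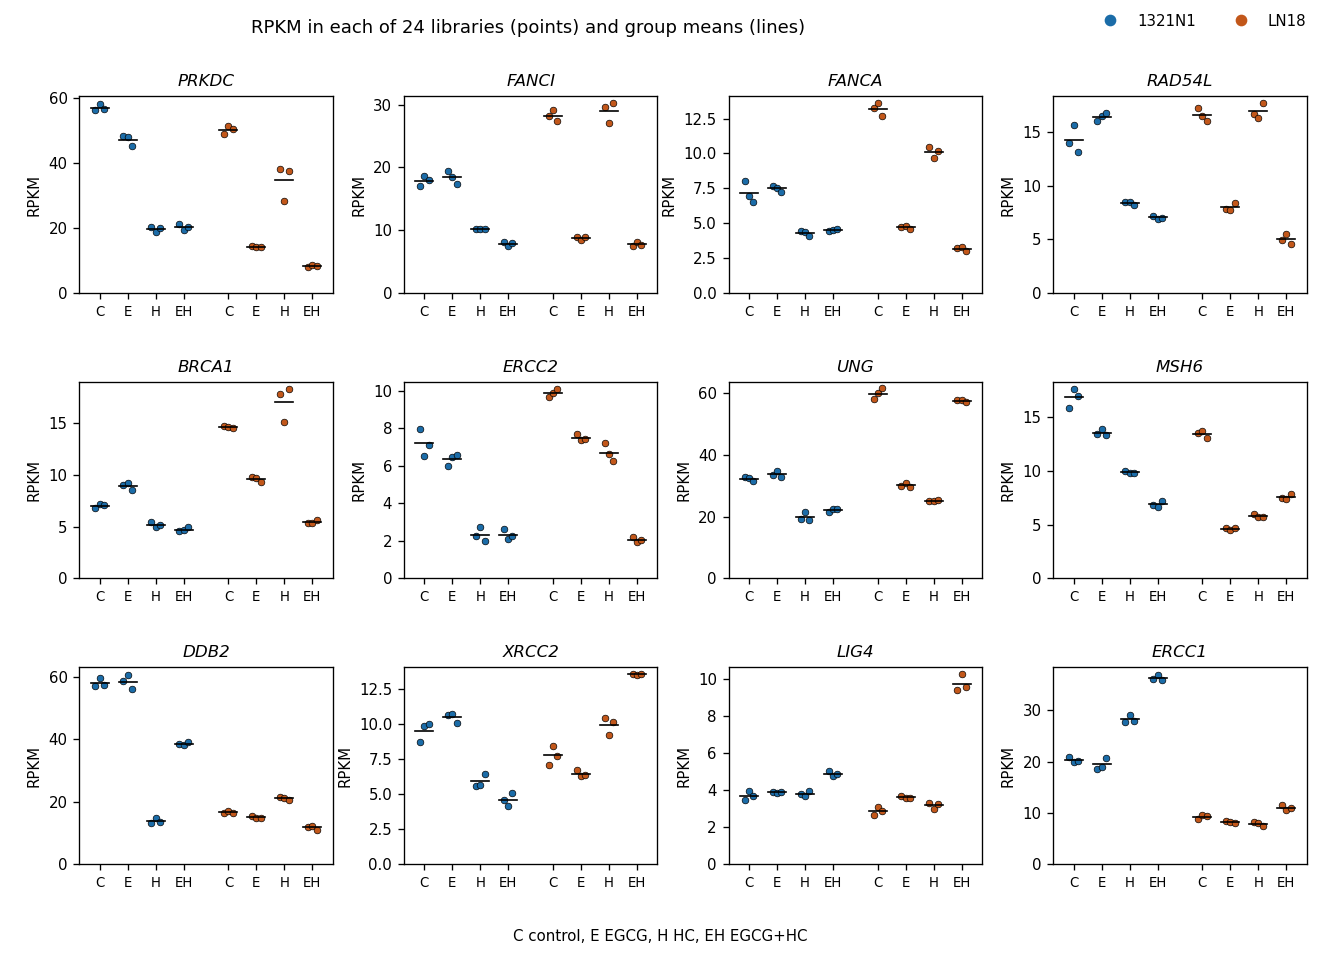
RPKM (vertical axes, from 0) of 12 of the genes in each of the 24 libraries (points, 3 per group, with the group mean as a line) for control (C), EGCG (E), HC (H) and EGCG+HC (EH) in 1321N1 and LN18. PRKDC is low with HC in 1321N1 and with EGCG in LN18, UNG in LN18 is low with each agent and not with both, and LIG4 is high with both agents in LN18.

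Of the 9 genes of homologous recombination, 3 fell (33.3%, against 18.0% of all genes tested) and 0 rose (against 23.1%) with EGCG+HC in 1321N1. In LN18 3 fell (33.3%, against 22.2%) and 1 rose (11.1%, against 24.1%). RAD54L, a DNA motor protein of homologous recombination, fell in both lines. It was 17.2, 16.5 and 16.1 RPKM in LN18 control, 7.88, 7.77 and 8.43 with EGCG, 16.7, 16.4 and 17.7 with HC and 4.94, 5.55 and 4.52 with EGCG+HC. The HC libraries overlapped the controls and the other 6 libraries lay below them, with a log2 change of -0.96 ± 0.042 (SE) at an adjusted p of 3.6e-06 for EGCG and -1.55 ± 0.066 (SE) at an adjusted p of 5.8e-07 for EGCG+HC. In 1321N1 the log2 change of RAD54L with EGCG+HC was -0.92 ± 0.063 (SE) at an adjusted p of 7.8e-06. LRRC41 on the other strand overlaps 19.9% of its exon length.

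BRCA1, a ubiquitin ligase that directs breaks to recombination, was 14.7, 14.6 and 14.5 RPKM in LN18 control, 9.74, 9.63 and 9.31 with EGCG, 17.7, 15.1 and 18.3 with HC and 5.30, 5.38 and 5.67 with EGCG+HC. Every HC library exceeded every control library and every EGCG+HC library lay below all others. The log2 change with EGCG+HC was -1.27 ± 0.036 (SE) at an adjusted p of 1.2e-07. In 1321N1 it was 6.74, 7.15 and 7.11 RPKM in control and 4.52, 4.68 and 4.92 RPKM with EGCG+HC, groups that did not overlap but whose log2 change of -0.49 stayed within the fold limit. Its partners BARD1, PALB2 and BRCA2 had log2 changes with EGCG+HC of 0.08, 0.45 and -0.07 in LN18, and none of these was called.

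XRCC2, a recombination gene, was the gene of the 38 that was called in opposite directions. In 1321N1 it was 8.71, 9.81 and 9.99 RPKM in control and 4.53, 4.16 and 5.05 RPKM with EGCG+HC, a log2 change of -0.91 ± 0.075 (SE) at an adjusted p of 2.0e-05. In LN18 it was 7.08, 8.44 and 7.72 RPKM in control and 13.5, 13.5 and 13.6 RPKM with EGCG+HC, a log2 change of 0.73 ± 0.058 (SE) at an adjusted p of 1.4e-05. The groups did not overlap in either line. XRCC3, another recombination gene, fell in 1321N1 (log2 change -0.64 ± 0.066 (SE) at an adjusted p of 7.4e-05) and in LN18 (-0.70 ± 0.044 (SE) at an adjusted p of 4.2e-06), and in 1321N1 the change was -0.57, within the fold limit, without control replicate 1. KLC1 on the other strand overlaps 76.7% of the exon length of XRCC3. RAD51C, also of homologous recombination, had log2 changes of -0.41 and 0.17, neither of them called. RAD52, which anneals single strands, fell with EGCG in LN18 from 3.31, 3.46 and 3.27 RPKM to 2.09, 1.70 and 1.83 RPKM, a log2 change of -0.60 that was -0.56 without EGCG replicate 2 and -0.58 without control replicate 2.

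Among the genes for end processing and helicases, RAD50 fell in LN18 and WRN rose in 1321N1 with EGCG+HC. RAD50 was 14.8, 15.4 and 15.3 RPKM in LN18 control, 8.07, 8.04 and 8.16 with EGCG, 18.1, 16.9 and 17.5 with HC and 5.64, 5.80 and 5.66 with EGCG+HC, and the 4 groups did not overlap. The log2 change with EGCG+HC was -1.28 ± 0.034 (SE) at an adjusted p of 9.7e-08. Other gene models, 1 of them on the same strand, overlap 76.9% of the exon length of RAD50 in the reference annotation. WRN, the helicase lost in Werner syndrome, was 7.10, 8.38 and 8.47 RPKM in 1321N1 control and 12.6, 12.8 and 13.8 RPKM with EGCG+HC, a log2 change of 0.65 ± 0.070 (SE) at an adjusted p of 8.8e-05 that was 0.58, within the fold limit, without control replicate 1. NBN, the partner of RAD50, fell with HC in 1321N1 from 12.5, 14.5 and 14.7 to 9.04, 8.72 and 8.86 RPKM, and its log2 change of -0.59 was -0.55 without control replicate 3. EXO1, an exonuclease of resection, and BLM, a helicase that dissolves crossed strands, were called in none of the 6 comparisons with control.

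Of the 4 checkpoint kinases, ATM, ATR and CHEK1 fell in at least 1 comparison with control. In LN18 ATM was 4.93, 5.13 and 4.80 RPKM in control, 1.41, 1.34 and 1.45 with EGCG, 8.17, 6.62 and 8.26 with HC and 2.51, 2.86 and 2.67 with EGCG+HC. The HC libraries were the highest and the EGCG libraries the lowest, with no overlap between the 4 groups. The log2 change was -1.31 ± 0.046 (SE) at an adjusted p of 1.7e-06 with EGCG and -0.70 ± 0.053 (SE) at an adjusted p of 1.1e-05 with EGCG+HC. ATR was 3.49, 3.80 and 3.38 RPKM in LN18 control and 1.29, 1.13 and 1.25 RPKM with EGCG, a log2 change of -1.03 ± 0.059 (SE) at an adjusted p of 9.3e-06, and with EGCG+HC its log2 change of -0.41 was within the fold limit. At these levels of 1 to 5 RPKM the pseudocount of 1 RPKM makes the log2 change smaller than that of the RPKM values. In 1321N1 neither ATM nor ATR was called with any treatment.

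CHEK1, the kinase that ATR activates, was 5.96, 6.44 and 6.53 RPKM in 1321N1 control and 3.84, 3.70 and 3.71 RPKM with EGCG+HC, a log2 change of -0.62 ± 0.047 (SE) at an adjusted p of 1.3e-05. In LN18 it was 11.9, 12.6 and 12.4 RPKM in control, 11.8, 11.7 and 11.8 with EGCG, 11.3, 11.6 and 11.5 with HC and 7.03, 7.26 and 7.21 with EGCG+HC. The libraries given both agents lay below all other LN18 libraries. Its log2 change there was -0.70 ± 0.037 (SE) at an adjusted p of 1.6e-06. CHEK2, the kinase that ATM activates, had a log2 change with EGCG+HC of 0.07 in 1321N1 cells and -0.35 in LN18 cells, and was not called in either. The reference annotation holds 7 pseudogenes of CHEK2 and 1 each of BRCA1, FANCD2 and RAD52, which the files do not list by name.

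MSH6, which recognises mismatches, fell in 5 of the 6 comparisons with control. MSH6 (chr2:47922669-48037202, GRCh37) was 13.5, 13.7 and 13.0 RPKM in LN18 control, 4.70, 4.505 and 4.69 with EGCG, 5.96, 5.67 and 5.71 with HC and 7.45, 7.41 and 7.81 with EGCG+HC. The 4 groups did not overlap, and the libraries given both agents stood above those given 1 agent. The log2 change was -1.35 ± 0.034 (SE) at an adjusted p of 1.0e-06 with EGCG, -1.09 ± 0.044 (SE) at an adjusted p of 5.2e-06 with HC and -0.75 ± 0.037 (SE) at an adjusted p of 1.2e-06 with EGCG+HC. In 1321N1 it was 15.8, 17.6 and 16.9 RPKM in control, 13.4, 13.9 and 13.3 with EGCG, 10.0, 9.76 and 9.78 with HC and 6.84, 6.66 and 7.22 with EGCG+HC, again with no overlap between groups. There the log2 change with EGCG+HC was -1.17 ± 0.050 (SE) at an adjusted p of 8.3e-07. The reference places 24.2% of the exon length of MSH6 under genes of the other strand, mainly FBXO11.

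Of the 4 genes of nucleotide excision repair, ERCC2 fell, ERCC1 rose in 1 line and DDB2 responded to HC in 1321N1. ERCC2, the XPD helicase of TFIIH, was 7.98, 6.51 and 7.11 RPKM in 1321N1 control, 2.27, 2.74 and 1.98 with HC and 2.63, 2.10 and 2.26 with EGCG+HC. Its log2 change with EGCG+HC was -1.30 ± 0.086 (SE) at an adjusted p of 6.4e-06. In LN18 it was 9.66, 9.88 and 10.1 RPKM in control, 7.68, 7.36 and 7.46 with EGCG, 7.20, 6.62 and 6.28 with HC and 2.23, 1.92 and 2.02 with EGCG+HC. The group given both agents lay below every other LN18 library, with a log2 change of -1.83 ± 0.050 (SE) at an adjusted p of 1.1e-07. DDB2 (chr11:47236016-47260768, GRCh37) was 58.5, 60.6 and 56.1 RPKM with EGCG, 13.2, 14.7 and 13.5 with HC and 38.5, 38.2 and 39.1 with EGCG+HC in 1321N1, against the 57.0 to 59.7 RPKM of its controls. HC gave the lowest libraries and EGCG+HC intermediate ones, and the log2 change with HC was -2.00 ± 0.047 (SE) at an adjusted p of 7.4e-08. In LN18 HC libraries held 21.6, 21.2 and 20.6 RPKM, above every LN18 control, with a log2 change of 0.34 that was within the fold limit. ERCC1, part of the nuclease that cuts beside a lesion, was 20.9, 19.9 and 20.04 RPKM in 1321N1 control and 36.1, 36.97 and 35.9 RPKM with EGCG+HC, a log2 change of 0.81 ± 0.034 (SE) at an adjusted p of 7.0e-07. POLR1G on the other strand overlaps 28.6% of its exon length. XPC, the lesion sensor, had log2 changes of 0.33 and -0.37 with EGCG+HC in 1321N1 and LN18 and was not called in either.

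In base excision and single-strand break repair, PARP1 fell in 4 of the 6 comparisons with control and UNG in 3. PARP1, which binds nicks and builds poly(ADP-ribose), was 47.5, 49.4 and 48.9 RPKM in 1321N1 control, 23.4, 24.0 and 22.8 with HC and 23.4, 24.0 and 24.6 with EGCG+HC, and the latter 2 groups overlapped. Its log2 change with EGCG+HC was -0.99 ± 0.034 (SE) at an adjusted p of 3.3e-07 in 1321N1 and -1.01 ± 0.025 (SE) at an adjusted p of 7.2e-08 in LN18. In LN18 its RPKM stepped from 44.5, 44.9 and 44.8 in control to 34.0, 34.5 and 33.8 with EGCG, 29.1, 28.4 and 28.5 with HC and 21.8, 21.7 and 21.4 with both, and no groups overlapped. UNG (chr12:109535402-109564530, GRCh37), the glycosylase that removes uracil, was 57.9, 59.8 and 61.5 RPKM in LN18 control, 29.9, 30.9 and 29.6 with EGCG, 25.1, 25.01 and 25.4 with HC and 57.6, 57.6 and 57.1 with EGCG+HC. Each agent alone lowered it, with log2 changes of -0.96 ± 0.031 (SE) at an adjusted p of 1.5e-06 for EGCG and -1.21 ± 0.038 (SE) at an adjusted p of 3.1e-06 for HC. With both agents its log2 change was -0.05, not called, although those 3 libraries lay just below the controls. In 1321N1 UNG was 32.7, 32.6 and 31.4 RPKM in control, 19.1, 21.4 and 18.8 with HC and 21.3, 22.4 and 22.4 with EGCG+HC, and the EGCG+HC libraries overlapped the HC ones. The files list 2 pseudogenes of UNG and also PARP1P1, a pseudogene of PARP1.

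APEX1 was 133, 135 and 139.8 RPKM in 1321N1 control, 64.5, 65.8 and 65.8 with HC and 74.2, 76.9 and 75.8 with EGCG+HC. Its log2 change was -1.04 ± 0.033 (SE) at an adjusted p of 2.4e-07 with HC and -0.84 ± 0.033 (SE) at an adjusted p of 5.7e-07 with EGCG+HC. XRCC1, the scaffold for single-strand break repair, was 14.2, 13.4 and 14.6 RPKM in LN18 control and 6.43, 5.82 and 6.21 RPKM with EGCG+HC, a log2 change of -1.07 ± 0.049 (SE) at an adjusted p of 8.1e-07. OGG1, the glycosylase for oxidised guanine, was 12.3, 10.9 and 11.2 RPKM in LN18 control and 5.82, 6.37 and 6.67 RPKM with EGCG+HC, a log2 change of -0.78 ± 0.062 (SE) at an adjusted p of 1.4e-05. Genes of the other strand overlap 29.0% of the exon length of OGG1, and other gene models 28.2% of that of XRCC1. POLB, the gap-filling polymerase, had log2 changes of -0.01 and -0.10 with EGCG+HC in 1321N1 and LN18 and was called in none of the 15 comparisons.

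In 1321N1 EGCG+HC differed from HC alone in 4 of the 38 genes and from EGCG alone in 19, comparisons that share the EGCG+HC libraries. Against HC alone 0 of the 38 genes were lower (7.23% of all 13864 genes tested were) by limma, where 5 were lower at an unadjusted p under 0.05, and 4 were higher (12.2%), namely DDB2, PALB2, RAD52 and XRCC4. DDB2 was higher by a log2 difference of 1.42 ± 0.041 (SE) at an adjusted p of 1.4e-06. PALB2, which joins BRCA1 to BRCA2, was 5.81, 5.61 and 5.83 RPKM with HC and 11.2, 11.2 and 11.6 RPKM with EGCG+HC, a log2 difference of 0.87 ± 0.033 (SE) at an adjusted p of 3.1e-06. XRCC4 was higher by 0.60 on the log2 scale, and by 0.54, within the fold limit, without EGCG+HC replicate 2 and by 0.57 without HC replicate 1. Against EGCG alone 18 were lower (20.5% of all 13975 genes) and 1, ERCC1, was higher (19.1%). The largest differences were those of PRKDC (log2 difference -1.18), ERCC2 (-1.15), FANCI (-1.14) and RAD54L (-1.12).

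In LN18 EGCG+HC differed from HC alone in 16 of the 38 genes and from EGCG alone in 16. Against HC 14 were lower (25.9% of all 14165 genes tested) and 2, LIG4 and UNG, were higher (19.5%). PRKDC had a log2 difference of -1.92 ± 0.11 (SE) at an adjusted p of 2.0e-06 and FANCI of -1.78 ± 0.053 (SE) at an adjusted p of 1.7e-07. LIG4 was higher than with HC by 1.37 ± 0.055 (SE) at an adjusted p of 5.1e-07, again as a log2 difference. Against EGCG 9 were lower (17.5% of all 13770 genes) and 7 were higher (19.5%). The lower ones were led by ERCC2 (log2 difference -1.48 ± 0.048 (SE) at an adjusted p of 2.9e-07), and the higher ones by LIG4 (1.22 ± 0.041 (SE) at an adjusted p of 3.3e-07), XRCC2 (0.97 ± 0.030 (SE) at an adjusted p of 2.7e-07) and UNG (0.91 ± 0.021 (SE) at an adjusted p of 9.3e-08).

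Whether both agents together did more or less than the sum of the single log2 changes was tested in each line over its 12 libraries. In 1321N1 0 genes lay below the sum by limma (12.8% of all 13727 genes tested), where 10 did at an unadjusted p under 0.05, and 3 lay above it (10.3%). DDB2 lay above it by 1.41 ± 0.059 (SE) at an adjusted p of 4.0e-08. PALB2 lay above it by 0.85 ± 0.056 (SE) at an adjusted p of 6.0e-07 and RAD52 by 0.66 ± 0.064 (SE) at an adjusted p of 8.4e-06. In LN18 7 lay below (23.1% of all 13686 genes) and 7 above (14.5%).

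UNG stood furthest above the sum in LN18, by 2.12 ± 0.039 (SE) at an adjusted p of 2.6e-11, followed by MSH6 (1.69 ± 0.051 (SE) at an adjusted p of 4.2e-10) and LIG4 (1.11 ± 0.073 (SE) at an adjusted p of 1.1e-07). For UNG and MSH6 each agent alone had lowered the gene, and for LIG4 neither had changed it by the limits. PALB2 was 8.68, 8.56 and 8.54 RPKM in LN18 control, 6.41, 6.49 and 7.25 with EGCG, 8.90, 8.69 and 8.66 with HC and 12.5, 12.2 and 11.6 with both, and lay above the sum by 0.74 ± 0.063 (SE) at an adjusted p of 8.6e-07. Below the sum lay ERCC2 (-0.98 ± 0.072 (SE) at an adjusted p of 2.6e-07), FANCD2 (-0.97 ± 0.077 (SE) at an adjusted p of 5.0e-07), BRCA1 (-0.92 ± 0.082 (SE) at an adjusted p of 1.3e-06) and CHEK2 (-0.81 ± 0.061 (SE) at an adjusted p of 3.1e-07). FANCD2, BRCA1 and CHEK2 had log2 changes of 0.19, 0.21 and 0.46 with HC alone. PRKDC, with the largest fall of all, was -0.18 from the sum in LN18 and was not called there.

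**Figure D3:**
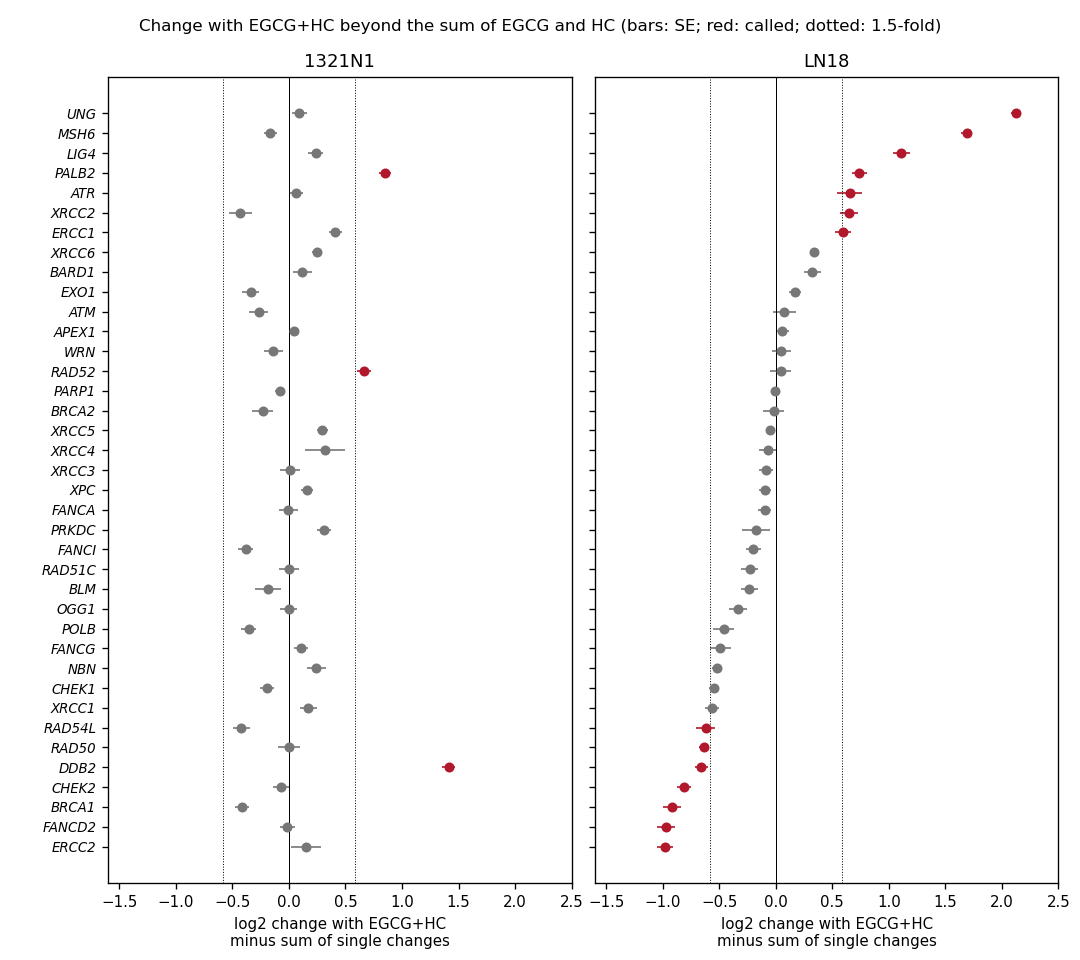
Log2 change with EGCG+HC minus the sum of the log2 changes with EGCG and with HC (horizontal axis, points with SE, 12 libraries per line) for the 38 genes (rows, ordered by LN18), with called values in red and the 1.5-fold limits dotted. UNG (2.12) and MSH6 (1.69) stand furthest to the right in LN18 and DDB2 (1.41) in 1321N1.

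The response to EGCG, given at the same dose, differed between the lines in 18 of the 38 genes, all of them lower in LN18 (11.4% of all 13444 genes tested were), and 0 were higher by limma (5.59%), where 1 was at an unadjusted p under 0.05. The serum in the medium also differed, and its part cannot be told apart from that of the line. The median log2 difference, LN18 minus 1321N1, was -0.53 for the 38 genes and -0.07 for all genes. It was largest for FANCI (-1.62 ± 0.065 (SE) at an adjusted p of 5.5e-08), PRKDC (-1.48 ± 0.046 (SE) at an adjusted p of 1.4e-08), ATM (-1.42 ± 0.081 (SE) at an adjusted p of 3.7e-07) and FANCA (-1.38 ± 0.082 (SE) at an adjusted p of 5.0e-07). All 4 Fanconi anaemia genes and 5 of the 9 recombination genes were among the 18, although FANCG was at -0.51, within the fold limit, after quantile normalization and at -0.58 without 1321N1 EGCG replicate 3. Of the recombination genes, BRCA2 (-0.56), XRCC3 (-0.50) and RAD52 (-0.58) also came within the fold limit after quantile normalization, on the log2 scale. With quantile normalization 12 were called, and with replicate 1 as the only EGCG library of 1321N1 16 were called.

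The response to EGCG+HC, with less HC in LN18, was lower in LN18 for 13 genes (18.2% of all 13989 genes tested) and higher for 3 (15.0%). FANCA had the largest difference downwards (-1.20 ± 0.083 (SE) at an adjusted p of 2.4e-07), followed by PRKDC (-1.01 ± 0.050 (SE) at an adjusted p of 2.0e-08) and RAD50 (-0.92 ± 0.059 (SE) at an adjusted p of 1.4e-07). XRCC2 (1.65 ± 0.10 (SE) at an adjusted p of 8.6e-08), LIG4 (1.15 ± 0.074 (SE) at an adjusted p of 1.4e-07) and APEX1 (0.61) were the 3 higher in LN18, as log2 differences of the responses, and APEX1 was at 0.58, within the fold limit, without LN18 control replicate 2. The dose of HC, the serum and the line cannot be told apart in these differences.

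**Figure D4:**
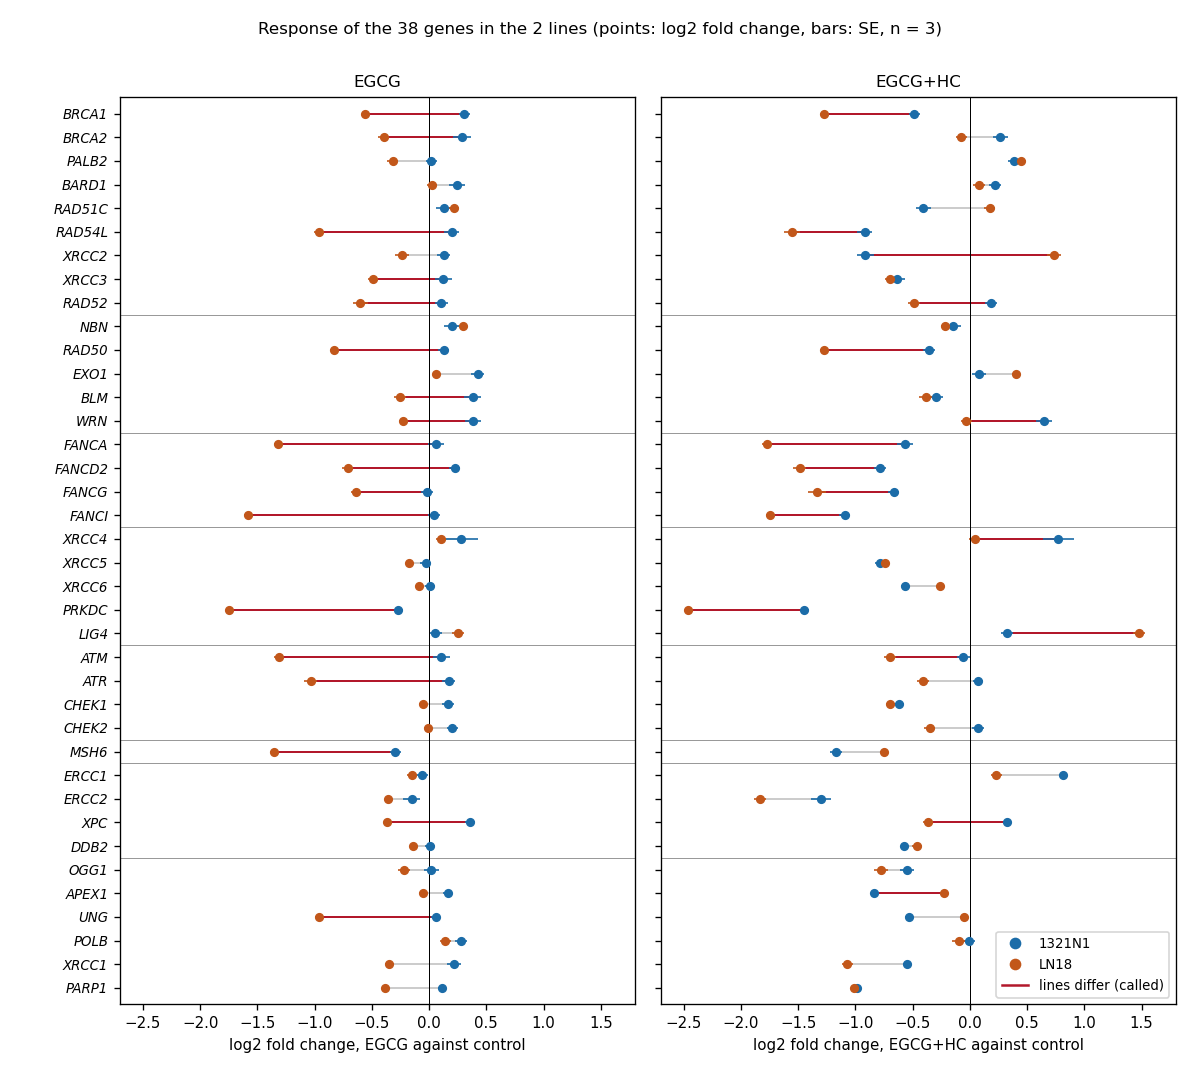
Log2 fold change against control with EGCG (left) and EGCG+HC (right) of the 38 genes (rows, by pathway) in 1321N1 (blue) and LN18 (orange), points with SE (n = 3 libraries per group), joined by a red line where the responses of the lines differ by the limits. With EGCG 18 genes are joined in red and lie further left in LN18.

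A list of 100 other repair genes gave the setting of these values. With EGCG+HC 22 of the 98 tested in 1321N1 were lower and 7 higher (median log2 change -0.14), and in LN18 35 of 99 were lower and 8 higher (median -0.38). These shares were 22.4% lower and 7.14% higher in 1321N1 and 35.4% lower and 8.08% higher in LN18, beside 18.0% and 23.1%, and 22.2% and 24.1%, of all genes tested. LIG1, the ligase that seals nicks during replication and excision repair, was 8.82, 8.92 and 9.11 RPKM in LN18 control and 2.24, 2.44 and 2.44 RPKM with EGCG+HC, a log2 change of -1.56 ± 0.044 (SE) at an adjusted p of 1.1e-07, and it also fell in 1321N1 (-1.11 ± 0.044 (SE) at an adjusted p of 5.4e-07). NTHL1, a glycosylase for oxidised pyrimidines, fell in 1321N1 (-1.21 ± 0.096 (SE) at an adjusted p of 1.7e-05), as did CLSPN, the adaptor between ATR and CHEK1 (-1.11 ± 0.057 (SE) at an adjusted p of 1.8e-06), and in LN18 the helicase RECQL4 (-1.57 ± 0.069 (SE) at an adjusted p of 6.6e-07) and the fork protein TIMELESS (-1.55 ± 0.042 (SE) at an adjusted p of 9.9e-08) fell. TDG, a thymine glycosylase, rose in 1321N1 from 5.88, 6.46 and 6.05 RPKM to 18.1, 16.5 and 17.2 RPKM (1.36 ± 0.050 (SE) at an adjusted p of 4.1e-07). ALKBH3, which reverses alkylation directly, had the largest rise of the list in LN18 (1.17 ± 0.027 (SE) at an adjusted p of 6.1e-08). With HC alone 23 of 98 fell (23.5%, against 17.7% of all genes) and 6 rose (6.12%, against 18.8%) in 1321N1. In LN18 2 of 99 fell with HC (2.02%, near the 2.26% of all genes) and 2 rose (2.02%, against 9.48%). With EGCG alone 15 of 99 fell (15.2%, against 9.70%) and 2 rose (2.02%, against 9.11%) in LN18. In 1321N1 0 of 99 fell with EGCG (1.83% of all genes did) and 1 rose (1.01%, against 3.14%).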

How the data were processed

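Poly(A) RNA of 1321N1 and LN18 cells was sequenced with an unstranded kit. The authors trimmed the reads, mapped them to GRCh37 (hg19) in CLC Genomics Workbench and deposited RPKM values, 1 sheet per group. Which annotation was used and how reads were assigned is not given in these sources. RPKM is scaled per length and library total, so a few abundant transcripts can move all others, and a level is relative.

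Groups came from the labels, and doses and the 24 h of treatment from the study's methods. Depth was inferred from the steps between low values, of which 63.8 to 92.5% per library were whole reads within 0.1 read. Too few were whole for a count test, so limma 3.58.1 (R 4.3.3, eBayes with trend) was fitted to log2(RPKM + 1) over all genes averaging 1 RPKM or more in the fitted libraries, 6 for a pair and 12 for the sum and the response differences, with Benjamini-Hochberg adjustment. A call required an adjusted p within 0.05 together with a fold of 1.5 or more, on the log2(RPKM + 1) scale, which understates the change of low genes. The fit was tested on simulated data with normal noise, where changes were planted only in genes above the lowest levels. Recovery was required only for planted folds well above the limit for calls. The simulation therefore does not cover calls near that limit or in the lowest genes. Python 3.11.15 (pandas 2.3.3, numpy 2.4.6) wrote the tables.

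The 38 genes and the lists were chosen with earlier results of these data known. By the naming rule, tests are given for each of the 38 genes called with EGCG+HC against control, for up to 8 called genes with the largest change in the other comparisons, and for up to 3 other repair genes per direction and line. Values for the rest complete a pathway. Positions and overlaps are from GENCODE on GRCh37, and promoter sequences from RefSeq on GRCh38.p14. Alternatives were a pseudocount of 0.1, no filter, a mean of at least 5 RPKM, quantile normalization, rescaling without mitochondrial genes, no fold limit, a replicate block, a fit over the 12 libraries of a line and leaving out each replicate. A fit with replicate 1 as the only 1321N1 EGCG library was added after the data were seen.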

Additional observations from a re-analysis of the deposited data

Results flagged for a closer look

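The response to EGCG at 50 µg/ml differed between LN18 and 1321N1 by a test of the difference itself (limma, interaction over 12 libraries). As a log2 difference, LN18 minus 1321N1, it was -1.62 for FANCI, -1.48 for PRKDC, -1.42 for ATM, -1.38 for FANCA, -1.21 for ATR, -1.16 for RAD54L, -1.06 for MSH6 and -1.02 for UNG.

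The response to EGCG+HC differed by the same test, where 1321N1 had received HC at 20 µg/ml and LN18 at 10 µg/ml. The log2 difference was 1.65 for XRCC2, -1.20 for FANCA, 1.15 for LIG4, -1.01 for PRKDC, -0.92 for RAD50, -0.78 for BRCA1, -0.73 for XRCC4 and -0.70 for FANCD2. For XRCC4 it was -0.58, within the fold limit, without 1321N1 control replicate 1.

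With HC alone every library of one line lay on the opposite side of its controls from every library of the other line for 8 genes. The difference was not tested, since the doses differ. The share of all genes with this pattern was not computed, so the count does not show whether it is unusual. The log2 changes in 1321N1 and LN18 were -2.00 and 0.34 for DDB2, -0.99 and 0.19 for FANCD2, -0.61 and 0.32 for XRCC2, -0.54 and 0.18 for RAD51C, and -0.49 and 0.19 for RAD50. They were -0.38 and 0.21 for BRCA1, -0.19 and 0.092 for XPC, and 0.46 and -0.21 for ERCC1.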

How the results depend on the processing

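No call changed direction under any alternative that was run. Of 189 called results of the 38 genes, 155 kept their call under every alternative that tested them, and 34 lost it under at least 1. Of these, 22 lost it on leaving out a replicate, 19 after quantile normalization and 6 after rescaling without mitochondrial genes. A mean of at least 5 RPKM tested 163 of the 189, the replicate block 175 and the fit over 12 libraries 124. A pseudocount of 0.1, no filter and the fit over 12 libraries ended no call. The smaller pseudocount enlarges the log2 changes and the other 2 leave them as they are, so none of them could end a call through the fold limit. A mean of at least 5 RPKM also leaves the log2 changes of the genes it tests as they are. Without the fold limit the counts of called genes among the 38 were higher. In 1321N1 they were then 17 for EGCG, 32 for HC and 32 for EGCG+HC against control, 23 for EGCG+HC against HC, 32 against EGCG and 20 beyond the sum. In LN18 they were 32, 26 and 32 against control, 34 against HC, 33 against EGCG and 26 beyond the sum. Between the lines they were 33 for control, 30 for the EGCG response and 28 for the EGCG+HC response. In the same order, the share of all genes was 40.1, 76.6, 80.9, 70.4, 79.0 and 61.1% in 1321N1, 71.3, 55.4, 84.0, 81.5, 82.3 and 72.8% in LN18, and 80.4, 54.3 and 70.8% between the lines. With a mean of at least 5 RPKM, EGCG+HC against HC in 1321N1 gave 2 calls, where fewer genes were tested. The 14 LN18 calls beyond the sum were 11 after quantile normalization.

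On leaving out each replicate, the counts ranged in 1321N1 from 0 to 0 for EGCG, 17 to 20 for HC and 16 to 17 for EGCG+HC against control, 3 to 4 against HC, 18 to 21 against EGCG and 3 to 3 beyond the sum. In LN18 they ranged from 11 to 12, 3 to 4 and 19 to 19 against control, 16 to 17 against HC, 15 to 17 against EGCG and 13 to 14 beyond the sum. Between the lines they ranged from 14 to 15 for control, 16 to 19 for the EGCG response and 15 to 18 for the EGCG+HC response.

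With a replicate block the counts were 0, 19, 16, 12, 3 and 19 for EGCG, HC and EGCG+HC against control in 1321N1 and then LN18, and 0 of 175 calls were lost. The block leaves the log2 changes as they are, so it could not end a call through the fold limit. In no pair of groups did all 3 same-numbered pairs of libraries correlate above 0.1. By this limit the numbers gave no sign of pairing, which does not show that the cultures were unpaired. The block was not run for the comparison of controls.

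Quantile normalization moved the median log2 change of all genes in LN18 HC against control from 0.10 to -0.03, where 3.64% of genes were lower and 6.07% higher, and beyond the sum in LN18 from -0.13 to -0.03 (19.1% lower, 17.5% higher). Rescaling without mitochondrial genes moved it for LN18 EGCG+HC against HC from -0.10 to -0.21 (30.6% lower, 16.4% higher). At levels near 1 RPKM, as for ATR and ATM with EGCG in LN18, the pseudocount of 1 RPKM shrinks the log2 change.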
